A study of Homo sapiens with 30 samples.

Results

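HSF1, HSF2, HSF4 and HSBP1, the heat shock transcription factors and the small protein that binds them, were followed through 30 mRNA libraries of the human embryonic kidney cell line HEK293. The members were chosen by name, as the rows of the gene count files whose Ensembl identifiers carry these symbols. They are 4 of the 58278 genes listed, and all 4 passed the filter on low counts, which left 22321 genes to test. The series asks how engineered mischarged tRNAs, built to correct missense mutations, act on cells. Here the question was whether the regulators of the heat shock response differed in mRNA level where the chaperone genes did.

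The cells (genotype wt) were transfected by lipofection with a mistranslation reporter, EGFP(mutant)-mCherry, a fusion of a mutated EGFP with mCherry, which marks transfected cells. Each of 5 reporters was given alone or together with its cognate missense-correcting tRNA (mc-tRNA) on the same plasmid: EGFP(R65) with Ser-tRNA_Arg(CCG), EGFP(R96Q) with Arg-tRNA_Gln(CUG), EGFP(R96C) with Arg-tRNA_Cys(GCA), EGFP(R96H) with Arg-tRNA_His(GUG), and EGFP(R96W) with Arg-tRNA_Trp(CCA). All 10 groups shared the transfection, a plasmid with an EGFP(mutant)-mCherry reporter and sorting for mCherry 48 h later, so no group was untransfected. No group was given a tRNA other than these mc-tRNAs. Each group had 3 independent replicates. The cells overexpress the constructs, and all come from 1 line.

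Heat shock factors are transcription factors that bind inverted repeats of a short motif, nGAAn, in the promoters of chaperone genes. HSF1 is the main activator of the response to misfolded protein: it is held inactive as a monomer by chaperones, and on stress it forms trimers and is phosphorylated, so its activity is set largely after translation. HSF2 forms trimers with HSF1 and takes part in development and in proteasome stress, HSF4 is best known for its role in the lens, and HSBP1 binds the trimerization domain of HSF1 and dampens its activity.

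The promoter stretches below let HSF2 and HSBP1 be compared with 2 chaperone genes that responded in these libraries. They are RefSeq sequences (GRCh38.p14), written 5′ to 3′ on the strand of the gene and cut where an exon of a coding gene begins. Capitals mark the pairs GAANNTTC and TTCNNGAA of the heat shock element, where overlapping pairs make 1 run. HSPA6 (chr1:161524290-161524539, plus strand) and DNAJB1 (chr19:14518421-14518647, minus strand) are shown beside HSF2 (chr6:122399301-122399545, plus strand) and HSBP1 (chr16:83807728-83807842, plus strand).
HSF2: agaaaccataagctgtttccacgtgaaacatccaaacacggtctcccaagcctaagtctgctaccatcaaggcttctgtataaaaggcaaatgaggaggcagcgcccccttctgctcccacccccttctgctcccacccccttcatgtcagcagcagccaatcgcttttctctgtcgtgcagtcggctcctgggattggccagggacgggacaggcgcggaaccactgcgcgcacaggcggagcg
HSBP1: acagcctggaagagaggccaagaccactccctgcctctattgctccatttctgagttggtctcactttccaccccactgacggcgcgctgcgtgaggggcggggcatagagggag
HSPA6: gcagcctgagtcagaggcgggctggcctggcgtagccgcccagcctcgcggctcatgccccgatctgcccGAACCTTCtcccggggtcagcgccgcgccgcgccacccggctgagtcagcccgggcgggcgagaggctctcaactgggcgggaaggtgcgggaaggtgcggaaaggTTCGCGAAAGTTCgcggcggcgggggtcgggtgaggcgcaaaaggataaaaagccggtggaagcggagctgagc
DNAJB1: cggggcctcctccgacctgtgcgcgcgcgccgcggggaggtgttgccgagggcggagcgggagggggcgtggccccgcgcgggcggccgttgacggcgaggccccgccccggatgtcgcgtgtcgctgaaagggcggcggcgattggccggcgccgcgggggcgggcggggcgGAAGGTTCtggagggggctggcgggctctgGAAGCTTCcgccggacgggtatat

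The search covered windows of 250 bases before to 50 bases after each RefSeq start, on both strands. GAANNTTC was found in 6.77% and TTCNNGAA in 7.74% of all 35116 windows. A run of 3 units (GAANNTTCNNGAA or TTCNNGAANNTTC), which contains both pairs, was in 0.49%. None of these letters occurred in the windows searched for HSF2, HSF4 and HSBP1. HSF1 had no window among these sequences and was not searched. HSPA6 held a 3-unit run, 74 bases before its start, and a separate GAANNTTC. DNAJB1 held 2 copies of GAANNTTC in the window of which a part is shown. HSPH1 and BAG3 held none of these matches in their windows, like the members searched. Yet they rose by 5.81 and 5.71 on the log2 scale with Arg-tRNA_Cys(GCA), so a missing match does not set the members apart from responding genes. Of 34 heat shock genes listed as HSF1-responsive from general knowledge, 30 had a window. Counting a match in any window of a gene, 18 of them held GAANNTTC, 13 TTCNNGAA and 9 a 3-unit run. Counted the same way, 8.21%, 9.46% and 0.608% of all 27305 genes did. A match describes the letters only and does not show binding, and a missing match covers this window alone.

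Gene counts summed to 39017548 to 55446962 per library. All 7 listed HEK293 markers, among them VIM, KRT18 and NEFM, were above 1 CPM (counts scaled to a common library size) in every library. Of 11 markers of stromal, blood, skin and liver cells, 5 (CD3E, HBB, KRT14, KRT5 and PTPRC) had a median of 0, and 1, COL1A1, was above 1 CPM in every library at 15.1 to 47.8 CPM. The summed level of the 11 was 51.9 to 52.2 CPM with Arg-tRNA_Cys(GCA) against 19.9 to 21.4 CPM in EGFP(R96C), and 33.4 to 36.3 CPM with Ser-tRNA_Arg(CCG) against 26.2 to 28.1 CPM in EGFP(R65). Their part in the results was not tested. The 6 EGFP(R65) libraries had 0 counts of ERCC spike-in RNA and the other 24 had 10 to 106, so a difference between EGFP(R65) and the EGFP(R96) reporters cannot be told apart from a difference in library making. In sorted populations, fewer cells with an mRNA and less of it per cell cannot be told apart.

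The heat shock genes set the scene for the regulators. Their list came from general knowledge but was made with earlier results of these data known, so its counts are descriptive. With Arg-tRNA_Cys(GCA), 33 of 33 tested members of the list of 34 rose, with a median log2 change of 3.61 against -0.04 over all genes tested, where 30.2% of genes rose. With Arg-tRNA_Trp(CCA), 33 of 33 rose as well, with a median of 1.31 against -0.03 and a background of 20.7% of genes. The list took 11.4% of all counts with Arg-tRNA_Cys(GCA) against 1.05% in its reporter, and 2.67% against 1.24% for Arg-tRNA_Trp(CCA).

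HSPA6, the strictly inducible HSP70, went from 0.468 to 8668 CPM with Arg-tRNA_Cys(GCA) and from 1.66 to 99.7 CPM with Arg-tRNA_Trp(CCA). DNAJB1, the HSP40 that directs HSP70 and takes part in shutting HSF1 off, went from 127.2 to 19590 CPM and from 148.4 to 681 CPM. In the 3 other groups the list's median was 0.24 for Arg-tRNA_His(GUG), 0.15 for Arg-tRNA_Gln(CUG) and -0.02 for Ser-tRNA_Arg(CCG). With Arg-tRNA_His(GUG) 13 of 33 rose and 0 fell, against 1.56% of all genes that rose and 0.95% that fell, and the count came to 1 without EGFP(R96H) replicate 3 or mc-tRNA replicate 1, to 7 without EGFP(R96H) replicate 2 and to 6 without mc-tRNA replicate 2. With Arg-tRNA_Gln(CUG) 3 rose and 0 fell (0.273% and 0.278% of all genes), and 1 rose without EGFP(R96Q) replicate 2 or mc-tRNA replicate 2. With Ser-tRNA_Arg(CCG) 11 rose and 11 fell, against 26.6% and 30.7% of all genes. HSPA6 rose there from 9.18 to 48.7 CPM, by 2.41 ± 0.23 on the log2 scale (edgeR adjusted p = 9.195e-09). DNAJB1 rose by 0.52 and BAG3 by 0.63. HSPA1A, another inducible HSP70, fell by 1.48, from only 3.75 to 1.34 CPM. HSPB8, a small heat shock protein, fell by 1.545 and HSPH1 by 0.28. HSPA8, HSP90AA1 and HSPB1 were not called there. DNAJA4, the untested member, had 0 to 9 counts in each library.

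Of the 4 regulators, none was called with Arg-tRNA_Gln(CUG) or Arg-tRNA_His(GUG) by edgeR's quasi-likelihood test at an adjusted p under 0.05. In these comparisons 0.551% and 2.51% of all genes tested were called. With Ser-tRNA_Arg(CCG) 3 of 4 fell, where 57.3% of genes were called and 30.7% fell. With Arg-tRNA_Cys(GCA) 2 rose and 1 fell on the TMM scale, where 60.7% were called, 30.2% higher and 30.5% lower. With Arg-tRNA_Trp(CCA) 2 rose and 1 fell, where 42.5% were called, 20.7% higher and 21.7% lower. With 4 genes, no count of members is read as a result. On library totals, the scaling described further down, 0 rose and 2 fell with Arg-tRNA_Cys(GCA). The members differed in direction and size, shown in the plot of CPM by library.

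**Figure D1:**
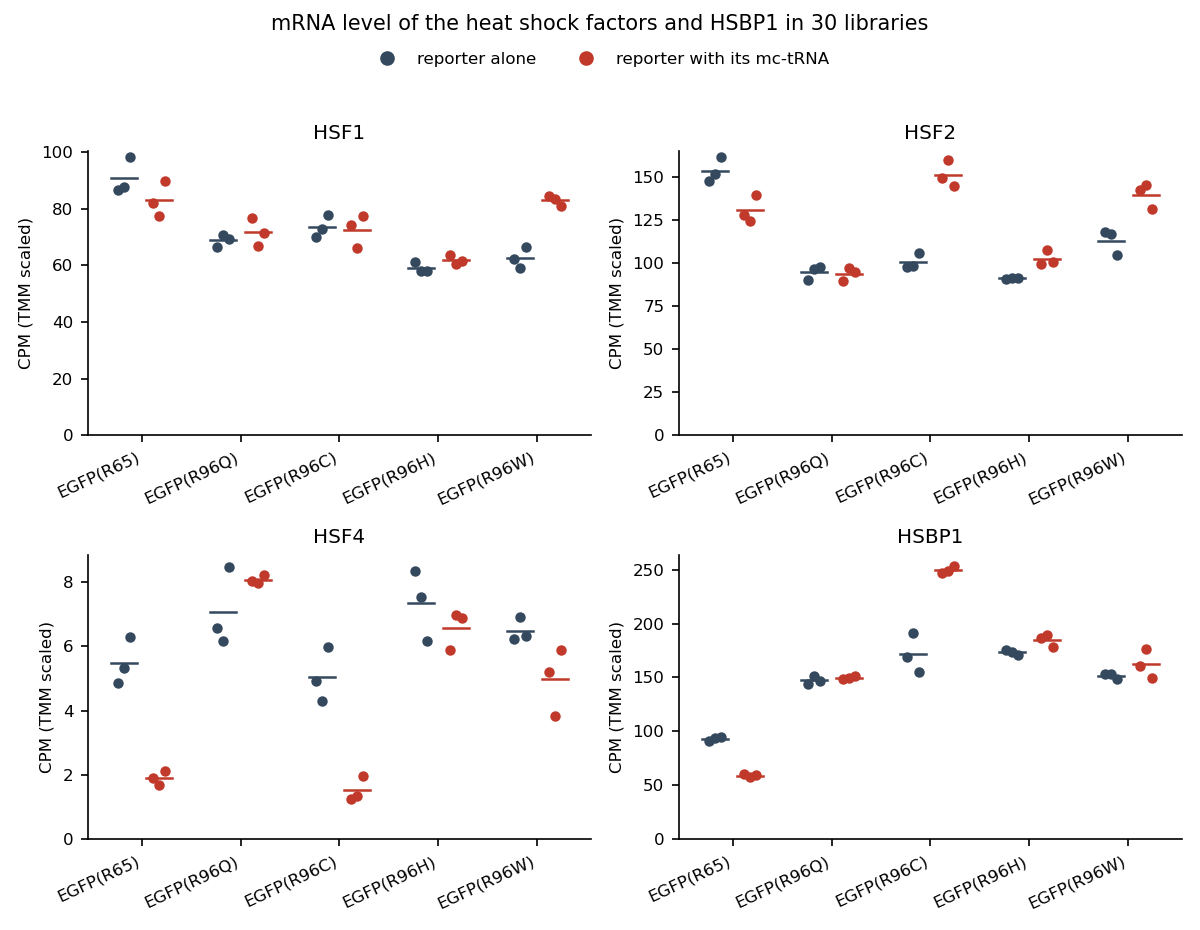
CPM scaled with TMM factors (vertical axes, from 0) of HSF1, HSF2, HSF4 and HSBP1 in 30 libraries, by reporter (horizontal axis). Dark points are libraries with the reporter alone, red points those with the mc-tRNA, and bars the mean of 3. HSF4 was at 2.11 CPM or less in all 6 libraries with Ser-tRNA_Arg(CCG) or Arg-tRNA_Cys(GCA) and at 3.82 CPM or more elsewhere, and HSBP1 was highest with Arg-tRNA_Cys(GCA).

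HSF1, the master activator, lies at chr8:144291591-144314722 on the plus strand (GRCh38, GENCODE 29, ENSG00000185122.10) and had 2201 to 4646 counts per library. With Arg-tRNA_Cys(GCA), its level was 74.3, 66.2 and 77.4 CPM in the 3 replicates, against 70.0, 72.9 and 78.0 CPM in EGFP(R96C) alone. The groups overlapped, with the mc-tRNA library at 66.2 CPM below all of the reporter libraries. The log2 change was -0.02 ± 0.07 (SE, n = 3 per group; 95% interval -0.16 to 0.12; edgeR adjusted p = 0.813) on the TMM scale, while its targets rose many-fold in the same libraries. On the same scale the median log2 change of the heat shock genes was 3.61, which lies outside that interval. This sets sizes of change side by side, and no cause was tested.

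With Arg-tRNA_Trp(CCA), HSF1 stood at 84.5, 83.5 and 81.1 CPM against 62.3, 59.2 and 66.6 CPM in EGFP(R96W). The groups did not overlap, as for 47.8% of all genes tested. HSF1 rose by 0.41 ± 0.07 on the log2 scale (edgeR adjusted p = 6.49e-06). On the TMM scale this was the only comparison of 5 in which HSF1 was called. On library totals it was also called lower with Arg-tRNA_Cys(GCA) (-0.57, adjusted p = 8.68e-09) and with Ser-tRNA_Arg(CCG) (-0.16, adjusted p = 0.0416). The difference between the 2 effects, Arg-tRNA_Cys(GCA) minus Arg-tRNA_Trp(CCA), was -0.43 ± 0.09 (edgeR adjusted p = 0.000337; 43.7% of genes were called in that test).

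In the other 3 comparisons HSF1 was not called on the TMM scale. With Ser-tRNA_Arg(CCG) it was at 82.2, 77.5 and 89.7 CPM against 86.5, 87.8 and 98.4 CPM in EGFP(R65), which overlapped. The log2 change was -0.13 ± 0.07 (edgeR adjusted p = 0.0977). It also passed the threshold without mc-tRNA replicate 3 (-0.19, adjusted p = 0.0264). For Arg-tRNA_Gln(CUG), with 66.8 to 76.7 CPM against 66.4 to 70.8 CPM, the change was 0.06 ± 0.07. For Arg-tRNA_His(GUG), with 60.4 to 63.7 CPM against 58.0 to 61.1 CPM, it was 0.07 ± 0.07, and the groups overlapped in both.

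HSF2, the partner of HSF1 in mixed trimers, lies at chr6:122399546-122433119 on the plus strand (ENSG00000025156.12) and had 4098 to 7028 counts per library. With Arg-tRNA_Cys(GCA) it was at 149.4, 159.6 and 144.99 CPM against 97.6, 98.0 and 105.8 CPM in EGFP(R96C). The lowest library with the mc-tRNA stood well above the highest without it, a separation that 61.8% of all genes tested showed. HSF2 rose by 0.59 ± 0.06 on the log2 scale with TMM factors (edgeR adjusted p = 1.52e-10). On library totals, which count heat shock transcripts in full, the change was 0.04 and the call was lost (adjusted p = 0.515). With Arg-tRNA_Trp(CCA) it was at 142.2, 145.4 and 131.6 CPM against 118.0, 116.8 and 104.4 CPM, again without overlap. That rise was 0.31 ± 0.06 (edgeR adjusted p = 9.945e-05), and 0.18 with library totals.

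HSF2 went the other way with Ser-tRNA_Arg(CCG). It was at 127.7, 124.5 and 139.7 CPM against 147.4, 151.7 and 161.4 CPM in EGFP(R65), without overlap, as for 66.3% of all genes tested there. HSF2 fell by 0.23 on the log2 scale (SE 0.06, edgeR adjusted p = 0.00132). With Arg-tRNA_His(GUG) it was at 99.6, 107.6 and 100.4 CPM against 90.8, 91.4 and 91.4 CPM. These did not overlap either, as for 27% of genes, but the difference of 0.17 ± 0.06 was not called (edgeR adjusted p = 0.135). A fit of those 6 libraries alone gave 0.18 with an adjusted p of 0.0211. With Arg-tRNA_Gln(CUG), 89.6 to 97.3 CPM against 90.1 to 97.8 CPM gave -0.02 ± 0.06.

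HSF4 lies at chr16:67164681-67169945 on the plus strand (ENSG00000102878.16). It was the scarcest member, with 37 to 465 counts per library, so its values carry the widest errors, yet it had the largest changes. With Arg-tRNA_Cys(GCA) it was at 1.25, 1.33 and 1.96 CPM against 4.90, 4.29 and 5.96 CPM in EGFP(R96C). With Ser-tRNA_Arg(CCG) it was at 1.89, 1.68 and 2.11 CPM against 4.86, 5.33 and 6.27 CPM in EGFP(R65). In each case the highest library with the mc-tRNA was less than the lowest without it.

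HSF4 fell by 1.74 on the log2 scale with Arg-tRNA_Cys(GCA) (SE 0.18, edgeR adjusted p = 2.41e-10) and by 1.53 with Ser-tRNA_Arg(CCG) (SE 0.17, edgeR adjusted p = 1.53e-09). The difference between these effects was 0.21 ± 0.26 (95% interval -0.31 to 0.73), and it was not called (edgeR adjusted p = 0.504). HSF4 thus fell where every tested heat shock gene rose and also where as many rose as fell. With library totals the fall with Arg-tRNA_Cys(GCA) was 2.29, and the difference from Ser-tRNA_Arg(CCG) came to 0.72 (adjusted p = 0.0201).

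With Arg-tRNA_Trp(CCA) HSF4 was at 5.21, 3.82 and 5.88 CPM against 6.23, 6.90 and 6.31 CPM, with no overlap but a wide spread. The change of -0.39 ± 0.15 was just called (edgeR adjusted p = 0.0401). The call was lost without any 1 of 5 of the 6 libraries. Without mc-tRNA replicate 2 the change was -0.23 (adjusted p = 0.284), without EGFP(R96W) replicate 2 -0.34 (adjusted p = 0.129), and without EGFP(R96W) replicates 1 or 3 or mc-tRNA replicate 1 it was -0.41, -0.40 and -0.42 with adjusted p of 0.0549, 0.0574 and 0.0576. It was also lost in a fit of the 6 libraries alone (-0.38, adjusted p = 0.0567) or without the EGFP(R65) libraries (-0.36, adjusted p = 0.0635). With Arg-tRNA_Gln(CUG), 7.95 to 8.20 CPM against 6.16 to 8.47 CPM gave 0.19 ± 0.15, and with Arg-tRNA_His(GUG), 5.89 to 6.97 CPM against 6.15 to 8.34 CPM gave -0.16 ± 0.15, neither called.

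HSBP1, the inhibitor, lies at chr16:83807843-83819737 on the plus strand (ENSG00000230989.6) and had 2401 to 9749 counts per library. With Arg-tRNA_Cys(GCA) it was at 246.4, 248.4 and 253.7 CPM, against 169.2, 191.3 and 155.4 CPM in EGFP(R96C). The reporter libraries were spread more widely than those with the mc-tRNA, and all of the latter were higher. HSBP1 rose by 0.54 ± 0.06 on the log2 scale with TMM factors (edgeR adjusted p = 6.69e-10). On library totals the change was -0.01, the other direction, and the call was lost (adjusted p = 0.914). With Ser-tRNA_Arg(CCG) it was at 60.0, 57.7 and 59.3 CPM against 90.6, 94.0 and 94.8 CPM in EGFP(R65). These groups lay far apart for their spread, and HSBP1 fell by 0.66 on the log2 scale (SE 0.06, edgeR adjusted p = 1.70e-11).

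HSBP1 was not called elsewhere. With Arg-tRNA_Trp(CCA) it was at 160.2, 176.1 and 149.7 CPM against 153.5, 152.9 and 148.8 CPM, which overlapped. The change was 0.09 ± 0.06 (95% interval -0.03 to 0.21, edgeR adjusted p = 0.205), and it passed the threshold only without mc-tRNA replicate 3 (0.15, adjusted p = 0.0494). On library totals it was -0.04. The Arg-tRNA_Cys(GCA) and Arg-tRNA_Trp(CCA) effects differed by 0.44 ± 0.08 (edgeR adjusted p = 3.83e-05) on the TMM scale, and by 0.03 (adjusted p = 0.772) with library totals. With Arg-tRNA_His(GUG), 177.8 to 189.2 CPM against 170.9 to 175.7 CPM gave 0.09 ± 0.06, and with Arg-tRNA_Gln(CUG), 148.4 to 151.4 CPM against 143.8 to 151.3 CPM gave 0.02 ± 0.06.

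**Figure D2:**
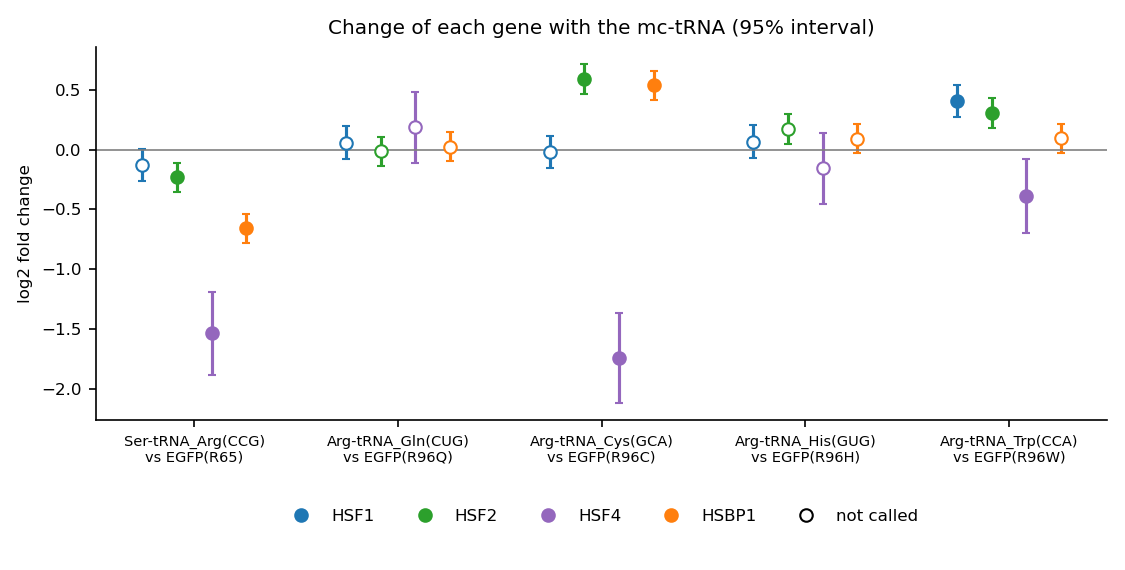
Log2 fold change (vertical axis) of each gene with each mc-tRNA against its reporter alone (horizontal axis), with 95% intervals from the edgeR fit and 3 libraries per group. Filled points were called at an adjusted p under 0.05 and open points were not. HSF2 and HSBP1 were higher with Arg-tRNA_Cys(GCA) and lower with Ser-tRNA_Arg(CCG), HSF4 was lower with both, and HSF1 was called only with Arg-tRNA_Trp(CCA); on library totals HSF1 was lower with both Arg-tRNA_Cys(GCA) and Ser-tRNA_Arg(CCG), HSF2 with Arg-tRNA_Cys(GCA) was at 0.04 and HSBP1 at -0.01.

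The Arg-tRNA_Cys(GCA) values depend on how libraries are scaled. The heat shock list took 11.4% of all counts with this mc-tRNA. Which transcripts made up the rest of the shift between scalings was not tested. TMM factors were 0.714 to 0.730 with this mc-tRNA and 1.04 to 1.08 in EGFP(R96C). On library totals the median over all genes moved to -0.54, and the log2 changes were -0.57 for HSF1 (adjusted p = 8.68e-09), 0.04 for HSF2 (adjusted p = 0.515), -2.29 for HSF4 and -0.01 for HSBP1 (adjusted p = 0.914). Scaling shifts all genes of a comparison alike, so relative to that median the values lie close to those on the TMM scale by construction, at -0.03 for HSF1, 0.58 for HSF2, -1.75 for HSF4 and 0.53 for HSBP1. For Arg-tRNA_Trp(CCA) the median moved to -0.16, and HSF1 rose by 0.28 (adjusted p = 0.00131). Of the member directions with Arg-tRNA_Cys(GCA), the fall of HSF4 was called under each of the 4 scalings tried, and the rises of HSF2 and HSBP1 under the 3 other than library totals.

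**Figure D3:**
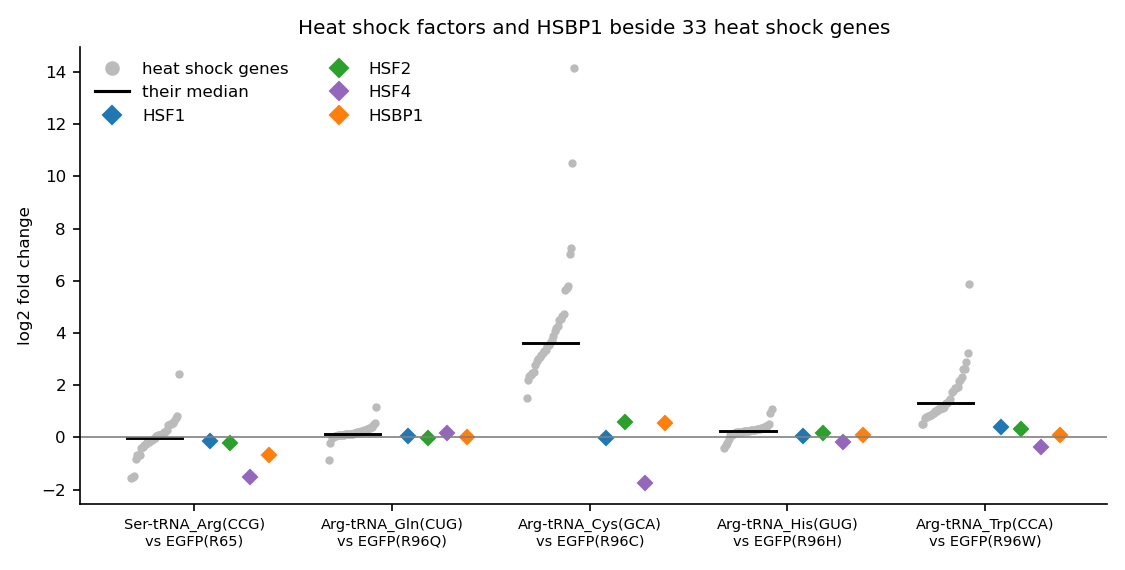
Log2 fold change on the TMM scale (vertical axis) of 33 heat shock genes (grey points, black line at their median) and of the 4 regulators (diamonds) with each mc-tRNA against its reporter alone (horizontal axis). With Arg-tRNA_Cys(GCA) the median of the heat shock genes was 3.61 and the regulators lay between -1.74 and 0.59; with Arg-tRNA_Trp(CCA) the median was 1.31 and the regulators lay between -0.39 and 0.41.

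A ratio of counts within a library needs no scaling. The HSBP1 to HSF1 ratio was 3.32, 3.75 and 3.28 with Arg-tRNA_Cys(GCA) against 2.42, 2.625 and 1.99 in EGFP(R96C), without overlap. The HSF2 to HSF1 ratio was 2.01, 2.41 and 1.87 against 1.39, 1.345 and 1.36. So within these libraries both HSBP1 and HSF2 were more abundant relative to HSF1, by 0.56 ± 0.13 and 0.61 ± 0.11 on the log2 scale. A two-sided exact permutation test of 3 against 3 gave p = 0.1 for each, the smallest that test allows with 3 against 3, so it cannot pass 0.05 here.

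The inhibitor's ratio went the other way with Arg-tRNA_Trp(CCA). HSBP1 to HSF1 was 1.90, 2.11 and 1.845 against 2.46, 2.58 and 2.23 in EGFP(R96W), a log2 difference of -0.32 ± 0.09 (exact permutation p = 0.1). With Ser-tRNA_Arg(CCG) it was 0.73, 0.74 and 0.66 against 1.05, 1.07 and 0.96, a log2 difference of -0.53 ± 0.07 (exact permutation p = 0.1). In all 3 comparisons the groups did not overlap. Separation was common among single genes, at 66.3% for Ser-tRNA_Arg(CCG), 61.8% for Arg-tRNA_Cys(GCA) and 47.8% for Arg-tRNA_Trp(CCA). Ratios of other gene pairs were not computed. Whether a separation of ratios is particular to these genes was therefore not tested. With Arg-tRNA_Gln(CUG) and Arg-tRNA_His(GUG) the HSBP1 to HSF1 ratio differed by -0.03 ± 0.06 and 0.02 ± 0.04, with overlap. HSF2 to HSF1 differed by -0.10 ± 0.03 with Ser-tRNA_Arg(CCG), without overlap, and by -0.10 ± 0.11 with Arg-tRNA_Trp(CCA), with overlap.

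**Figure D4:**
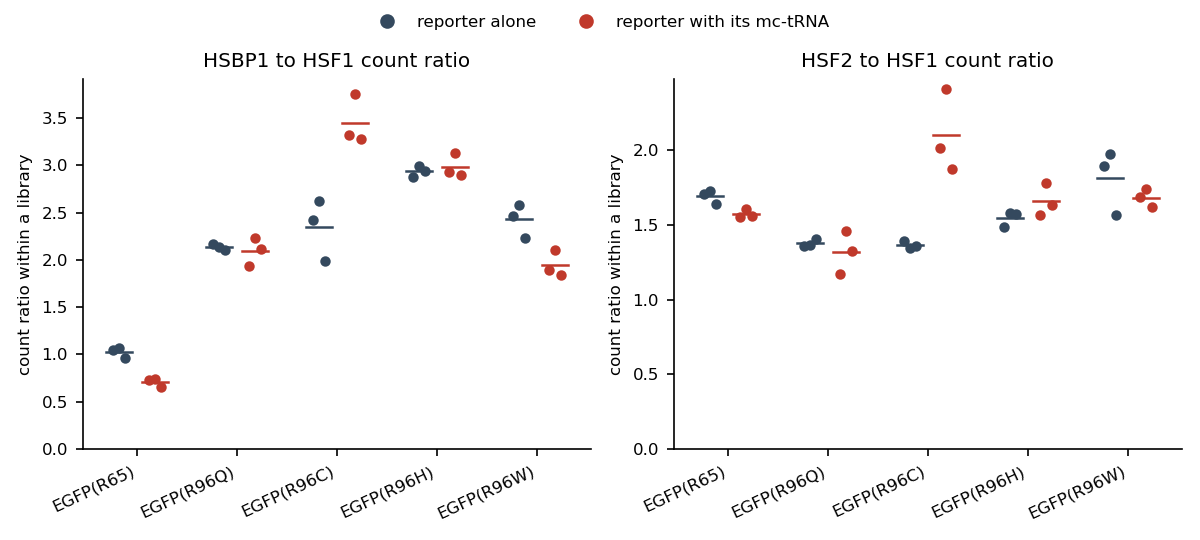
Ratio of raw counts within each library (vertical axes, from 0), HSBP1 to HSF1 and HSF2 to HSF1, by reporter (horizontal axis). Dark points are the reporter alone, red points the reporter with its mc-tRNA, and bars the mean of 3. HSBP1 to HSF1 ran from 0.66 with Ser-tRNA_Arg(CCG) to 3.75 with Arg-tRNA_Cys(GCA).

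The regulators also differed between reporters that had no mc-tRNA. Among the 4 EGFP(R96) reporters alone, HSF1, HSF2, HSF4 and HSBP1 were each called by edgeR, with adjusted p of 0.00065, 0.000322, 0.0132 and 0.000883, as 54.7% of all genes were. For HSF4 that call was lost without EGFP(R96C) replicate 1 (adjusted p = 0.054) or replicate 2 (adjusted p = 0.14). HSF1 ran from 59.1 ± 1.8 CPM (SD, n = 3) in EGFP(R96H) to 73.6 ± 4.1 CPM in EGFP(R96C), and HSF2 from 91.2 ± 0.3 CPM in EGFP(R96H) to 113.1 ± 7.5 CPM in EGFP(R96W). HSBP1 ran from 147.2 ± 3.8 CPM in EGFP(R96Q) to 173.4 ± 2.4 CPM in EGFP(R96H). These spreads between reporters are the reason each mc-tRNA is read against its own reporter.

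EGFP(R65) stood apart from the others. HSF1 was highest there of the 10 groups, at 90.9 ± 6.5 CPM, and so was HSF2, at 153.5 ± 7.2 CPM. HSBP1 was lower in both EGFP(R65) groups, at 93.1 ± 2.2 CPM alone and 59.0 ± 1.2 CPM with Ser-tRNA_Arg(CCG), than in any EGFP(R96) group, all of which had means of 147.2 CPM or more. With EGFP(R65) included, the 4 members were called among the 5 reporters with adjusted p of 1.53e-09, 3.32e-13, 0.00559 and 7.80e-15 by edgeR, as were 78.8% of genes. Since EGFP(R65) libraries also differ in spike-in counts, reporter and library making cannot be told apart here.

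In the order of the 10 group means, most neighbours overlapped. For HSF1 the 1 gap lay between the third group, EGFP(R96W) with Arg-tRNA_Trp(CCA) at 83.05 CPM, and the fourth, EGFP(R96C) at 73.6 CPM. For HSF2 it lay between EGFP(R65) with Ser-tRNA_Arg(CCG) at 130.7 CPM and EGFP(R96W) at 113.1 CPM, which left all the EGFP(R96) groups except those with Arg-tRNA_Cys(GCA) and Arg-tRNA_Trp(CCA) in the lower set. For HSF4 it lay between EGFP(R96W) with Arg-tRNA_Trp(CCA) at 4.97 CPM and EGFP(R65) with Ser-tRNA_Arg(CCG) at 1.89 CPM. HSBP1 had 4 gaps, of which 1 lay between 249.5 CPM in EGFP(R96C) with Arg-tRNA_Cys(GCA) and 184.5 CPM in EGFP(R96H) with Arg-tRNA_His(GUG), and another between 147.2 CPM in EGFP(R96Q) and 93.1 CPM in EGFP(R65).

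Levels of different genes can be set side by side only per length, and the length is uncertain. Over the annotated exon bases (5307 for HSF1, 2702 for HSF2, 3377 for HSF4 and 9525 for HSBP1), the level in EGFP(R96Q) was 13.0, 35.1, 2.09 and 15.5 CPM per kilobase. Over the median coding transcript (2105, 2549, 565 and 1020 bases) it was 32.7, 37.2, 12.5 and 144.3 CPM per kilobase. HSF4 was lowest and HSF2 above HSF1 on either length, while HSBP1, annotated with coding transcripts of 1020 to 8784 bases, moved from below HSF2 to above it.

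Whether an mc-tRNA effect on a member differed between reporters was tested directly. The effects of the 5 mc-tRNAs differed for each of the 4 members, as they did for 72.5% of all genes tested. Each pair of mc-tRNA effects was then compared. Of all genes, 44.6% were called for Ser-tRNA_Arg(CCG) minus Arg-tRNA_Gln(CUG), 56.5% for Ser-tRNA_Arg(CCG) minus Arg-tRNA_Cys(GCA), 41.7% for Ser-tRNA_Arg(CCG) minus Arg-tRNA_His(GUG) and 45.3% for Ser-tRNA_Arg(CCG) minus Arg-tRNA_Trp(CCA). For Arg-tRNA_Gln(CUG) the share was 50.2% minus Arg-tRNA_Cys(GCA), 0.811% minus Arg-tRNA_His(GUG) and 25.3% minus Arg-tRNA_Trp(CCA), for Arg-tRNA_Cys(GCA) 48.2% minus Arg-tRNA_His(GUG) and 43.7% minus Arg-tRNA_Trp(CCA), and for Arg-tRNA_His(GUG) 22.8% minus Arg-tRNA_Trp(CCA). HSF1 differed in 4 of 10 pairs of mc-tRNAs, all 4 with Arg-tRNA_Trp(CCA) on 1 side. On library totals the pairs with Arg-tRNA_Gln(CUG) and Arg-tRNA_His(GUG) lost that call (adjusted p = 0.0628 and 0.0793). HSF1 was then newly called in pairs that hold Arg-tRNA_Cys(GCA). The differences were 0.40 for Ser-tRNA_Arg(CCG) minus Arg-tRNA_Cys(GCA) (edgeR adjusted p = 0.000669) and 0.60 for Arg-tRNA_Gln(CUG) minus Arg-tRNA_Cys(GCA) (edgeR adjusted p = 2.68e-06). Arg-tRNA_Cys(GCA) minus Arg-tRNA_His(GUG) was at -0.61 (edgeR adjusted p = 2.24e-06). Which pairs differ for HSF1 thus depends on the scaling. HSBP1 differed in 7 pairs, which are all 7 that hold Ser-tRNA_Arg(CCG) or Arg-tRNA_Cys(GCA). On library totals the 3 pairs of Arg-tRNA_Cys(GCA) with Arg-tRNA_Gln(CUG), Arg-tRNA_His(GUG) and Arg-tRNA_Trp(CCA) lost the call for HSBP1 (adjusted p = 0.924, 0.387 and 0.772) and for HSF2 (adjusted p = 0.412, 0.283 and 0.177). HSF4 differed in 7 pairs and HSF2 in 8, of which Arg-tRNA_Gln(CUG) minus Arg-tRNA_Trp(CCA) for HSF4 (0.57 ± 0.21, edgeR adjusted p = 0.0429) and Ser-tRNA_Arg(CCG) minus Arg-tRNA_Gln(CUG) for HSF2 (-0.22 ± 0.09, edgeR adjusted p = 0.0386) lost the call in 10 and 6 of the 12 fits that left out 1 library. That HSF4 pair also lost the call without the EGFP(R65) libraries (edgeR adjusted p = 0.0648). That HSF2 pair also lost it with RLE size factors (edgeR adjusted p = 0.0703), no filter on low counts (edgeR adjusted p = 0.145) and DESeq2 (adjusted p = 0.0623). Arg-tRNA_Cys(GCA) minus Arg-tRNA_Trp(CCA) for HSF2 (0.285 on the TMM scale) lost the call without mc-tRNA replicate 2 of EGFP(R96C) (0.20, adjusted p = 0.0567). It was also lost with no filter on low counts (0.19, edgeR adjusted p = 0.195).

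Other genes of the family were scarce. Of HSF5, HSFX1, HSFX2, HSFX3, HSFX4, HSF2BP and HSBP1L1, 3 passed the filter. HSBP1L1, named for its likeness to HSBP1, rose with Arg-tRNA_Cys(GCA) from 4.43 to 15.7 CPM, by 1.83 ± 0.13 on the log2 scale (edgeR adjusted p = 2.09e-14), which is more than HSBP1 itself. HSF2BP, a binding partner of HSF2 known from meiosis, rose with Ser-tRNA_Arg(CCG) from 1.05 to 2.43 CPM, by 1.22 ± 0.21 (edgeR adjusted p = 5.745e-06). HSFX2, a copy on the X chromosome with a near-identical partner in HSFX1, was called lower with Arg-tRNA_Cys(GCA), but at 0.274 CPM against a level under that of 3 counts, so its reads and its value are uncertain.

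Proteins that act on HSF1 or HSF2 after translation made a list of 25 kinases, coactivators and enzymes that attach or remove modifiers, all tested. With Arg-tRNA_Cys(GCA) 13 rose and 7 fell, with a median log2 change of 0.17, where 30.2% of all genes rose and 30.5% fell, and on library totals 4 rose and 16 fell. CUL3, the scaffold of a ubiquitin ligase that targets HSF2, rose by 1.15 ± 0.07 (edgeR adjusted p = 6.92e-17). PARP1, which binds HSF1 at target promoters, fell by 0.78, and EP300, an acetyltransferase that acts on HSF1, fell by 0.45.

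With Arg-tRNA_Trp(CCA) 13 of the 25 rose and 1 fell, with a median of 0.15, where 20.7% of all genes rose and 21.7% fell, and 8 fell on library totals. GSK3A, a kinase that represses HSF1, rose by 0.70 ± 0.07 (edgeR adjusted p = 3.59e-10) and GSK3B fell by 0.22. With Ser-tRNA_Arg(CCG) 13 rose and 6 fell, with a median of 0.14, where 26.6% of all genes rose and 30.7% fell. CDC20, an activator of the anaphase-promoting complex, rose by 1.18 ± 0.11, PRKACA, a catalytic subunit of protein kinase A, rose by 0.69 ± 0.07, CAMK2G fell by 0.86 and PARP1 by 0.43. With Arg-tRNA_His(GUG) only FBXW7, which marks HSF1 for degradation, was called (0.35 ± 0.09, edgeR adjusted p = 0.0266), and it lost the call without any of 5 single libraries. With Arg-tRNA_Gln(CUG) 0 of 25 were called.

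HSF1 and HSF4 sit close to other genes, and counts near shared ends need care. HSF4 starts 110 bases from the end of FBXL8 and ends 208 bases before NOL3, all on the plus strand, and it overlaps AC074143.1 by 1135 bases on the same strand, a gene with 0 to 5 counts per library. With Ser-tRNA_Arg(CCG) FBXL8 fell by 1.65 (SE 0.24, edgeR adjusted p = 1.09e-06) and NOL3 fell by 1.32 (SE 0.13, edgeR adjusted p = 1.56e-10) beside HSF4. With Arg-tRNA_Cys(GCA) FBXL8 fell by 1.47 (SE 0.25, edgeR adjusted p = 1.03e-05), while NOL3 was at -0.004 ± 0.13, and at -0.55 on library totals. Whether reads running on from one gene into the next add to these counts was not tested.

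**Figure D5:**
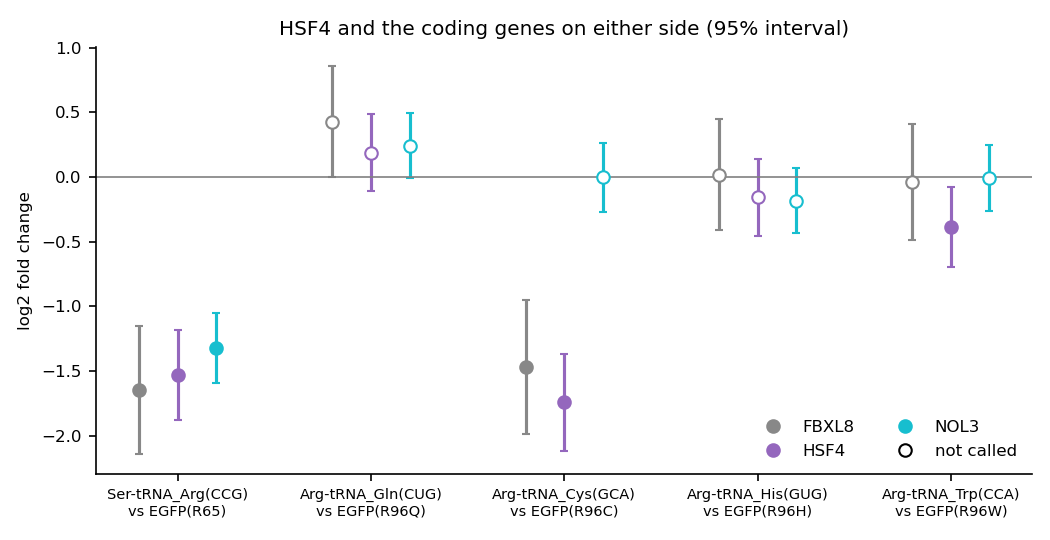
Log2 fold change on the TMM scale (vertical axis) of HSF4 and of FBXL8 and NOL3, the coding genes on either side, with each mc-tRNA against its reporter alone (horizontal axis), with 95% intervals. Filled points were called. FBXL8 and HSF4 were both called lower with Ser-tRNA_Arg(CCG) and with Arg-tRNA_Cys(GCA), and NOL3 only with Ser-tRNA_Arg(CCG); NOL3 was also called lower with Arg-tRNA_Cys(GCA) on library totals.

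HSF1 starts 220 bases from BOP1, which runs the other way, and its end overlaps DGAT1 and AC233992.1 on the opposite strand. BOP1, a ribosome assembly factor, fell with Ser-tRNA_Arg(CCG) by 0.66 (SE 0.07, edgeR adjusted p = 8.89e-10) and with Arg-tRNA_Cys(GCA) by 0.46 (SE 0.07, edgeR adjusted p = 9.21e-07), where HSF1 was not called on the TMM scale. With Arg-tRNA_Trp(CCA), where HSF1 rose, BOP1 was at -0.02 ± 0.07. DGAT1, which makes triglycerides, fell with Ser-tRNA_Arg(CCG) by 0.50. HSBP1 starts 8 bases from the antisense gene AC009119.1, which had 0 or 1 count per library. MLYCD, the nearest gene on its other side, fell by 0.87 with Arg-tRNA_Cys(GCA), where HSBP1 rose, and by 0.42 with Arg-tRNA_Trp(CCA). The nearest genes of HSF2 were RNU1-18P, which was untested, and Z99129.4, an unclassified transcript that fell by 1.12 with Ser-tRNA_Arg(CCG) and by 0.43 with Arg-tRNA_Trp(CCA). With Arg-tRNA_Cys(GCA) Z99129.4 was called higher on the TMM scale (0.35, edgeR adjusted p = 0.009472). That call was lost with no filter on low counts, without EGFP(R96C) replicate 2 or mc-tRNA replicates 1 or 2, and on library totals, where the value was -0.19.

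The genes whose levels followed each member most closely were ranked by the correlation of log2 CPM over the 10 group means, among 15019 genes. The points share libraries and scaling and include both EGFP(R65) groups, so these values only describe these groups. HSF1 was followed by SDHAP1 (r = 0.97), RNF126, RFX1, WASH7P and RFNG, of which SDHAP1 and WASH7P are pseudogenes that can share reads with their parent genes. HSF2 was followed by PSMC3IP (r = 0.98), SNX19, MCPH1, DNAL1 and ZNF330. HSF4 was followed by ARL10 (r = 0.995), CYB5RL, MAVS, SPEG and CENPI. HSBP1 was followed by NXN (r = 0.99), PRDX1, ABRACL, TSPO and TMEM161A. None of these genes is on the list of heat shock genes.

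Between the members themselves the correlation over 10 groups was 0.72 for HSF1 with HSF2, -0.57 for HSF1 with HSBP1, -0.675 for HSF2 with HSF4 and 0.16 for HSF4 with HSBP1, on the same shared libraries. The EGFP(R65) groups had the highest HSF1 means and the lowest HSBP1 means of the 10 groups. These correlations therefore include a split between reporters that cannot be told apart from library making. No pair of members moved in 1 pattern over all groups.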

How the data were processed

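mRNA was measured in 30 libraries of sorted HEK293 cells by polyA selection, a strand-specific TruSeq protocol and NovaSeq sequencing, per the labels' protocols. The authors deposited raw counts per gene, made with STAR, SAMtools and featureCounts on hg38 per the submitters' processing notes; the sources used here give no versions, annotation, rule for shared bases or value of the strand option that the file headers show. Symbols were found for 57437 of 58278 gene identifiers. Positions are from GENCODE 29 (GRCh38).

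Counts were fitted with edgeR 4.0.16 (R 4.3.3; glmQLFit, robust, TMM factors, filterByExpr), with 10 group means over all 30 libraries, 20 residual degrees of freedom and a biological coefficient of variation of 8.24%. Adjusted p-values are edgeR's, Benjamini-Hochberg over 22321 genes, and a gene is called under 0.05. CPM is counts scaled by the library total times its TMM factor. Simulated data with known changes in few genes of a single group served to check the fit. They cannot check the scaling where many genes change, as in these libraries. A count of 0 allows 3 counts, or 0.0541 to 0.0769 CPM, for counting error only. ERCC counts were left out. Replicates differed by more than counting error (chi-square per degree of freedom 2.08 to 36.7).

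The members and lists were chosen with earlier results of these data known. Besides the 4 members, named genes are 8 fixed chaperones and the largest called rise and fall in the heat shock list, of which those that carry the text are printed, the 2 largest called rises and falls among the modifiers (some of which are not reported here), tested family genes, the 5 closest profiles of each member, and neighbouring genes. Alternatives were RLE size factors, library totals, TMM without heat shock genes, no filter, DESeq2 1.42.0, a replicate block, fits without EGFP(R65) or of 6 libraries, and leaving out each library.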

Additional observations from a re-analysis of the deposited data

Results flagged for a closer look

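The effects of the 5 mc-tRNAs on a gene were tested against each other (edgeR F-test, Benjamini-Hochberg adjusted over all genes tested), and they differed for all 4 members, as for 72.5% of genes. For HSF1 the adjusted p was 0.0001003, with log2 changes from -0.13 for Ser-tRNA_Arg(CCG) to 0.41 for Arg-tRNA_Trp(CCA). For HSF2 it was 2.397e-09, with changes from -0.23 for Ser-tRNA_Arg(CCG) to 0.59 for Arg-tRNA_Cys(GCA). For HSF4 it was 1.906e-09, with changes from -1.74 for Arg-tRNA_Cys(GCA) to 0.19 for Arg-tRNA_Gln(CUG). For HSBP1 it was 6.358e-13, with changes from -0.66 for Ser-tRNA_Arg(CCG) to 0.54 for Arg-tRNA_Cys(GCA).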

How the results depend on the processing

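Of 654 recomputed values of the members and their ratios, 638 kept their side of the threshold or, for ratios, stayed within the spread, 5 newly passed it, 10 no longer passed it and 1 called value turned, HSBP1 with Arg-tRNA_Cys(GCA). Of 223 values that were not called or, for ratios, have no call, 8 also took the other sign, among them HSBP1 with Arg-tRNA_Trp(CCA) on library totals (-0.04). Library totals in place of TMM factors gave, for Arg-tRNA_Cys(GCA), -0.57 for HSF1, 0.043 for HSF2 and -0.0067 for HSBP1, and -0.16 for HSF1 with Ser-tRNA_Arg(CCG). They also turned 5 differences between mc-tRNA effects: 0.40 for HSF1 (Ser-tRNA_Arg(CCG) minus Arg-tRNA_Cys(GCA)), 0.0094 for HSBP1 (Arg-tRNA_Gln(CUG) minus Arg-tRNA_Cys(GCA)), -0.10 for HSF2 and -0.075 for HSBP1 (Arg-tRNA_Cys(GCA) minus Arg-tRNA_His(GUG)), and -0.13 for HSF2 (Arg-tRNA_Cys(GCA) minus Arg-tRNA_Trp(CCA)). Z99129.4 with Arg-tRNA_Cys(GCA) turned from 0.35 to -0.19. These follow the shift of the median over all genes to -0.54.

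A fit of only the 6 libraries compared gave 0.18 for HSF2 with Arg-tRNA_His(GUG) and -0.38 for HSF4 with Arg-tRNA_Trp(CCA), and the fit without the EGFP(R65) libraries gave -0.36 for the latter; the cause was not tested. Leaving out each library in turn gave -0.19 to -0.074 for HSF1 with Ser-tRNA_Arg(CCG), -0.53 to -0.23 for HSF4 and 0.030 to 0.15 for HSBP1 with Arg-tRNA_Trp(CCA), and adjusted p of 0.00436 to 0.14 for HSF4 among the 4 EGFP(R96) reporters. The heat shock genes that rose with Arg-tRNA_Gln(CUG) numbered 6 with no filter on low counts, 1 without the EGFP(R65) libraries and 5 with the block, against 3. With Arg-tRNA_His(GUG) they numbered 26 in the fit of 6 libraries, 1 to 16 without single libraries and 19 by DESeq2, against 13. Among the modifiers the called rise with Arg-tRNA_His(GUG) went from 1 to between 0 and 6, and the called falls with Arg-tRNA_Trp(CCA) from 1 to at most 8.

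The correlation of deviations from the group means was -0.0772 to 0.14 over 15 same-numbered pairs, 12 of them positive and 4 over 0.1, and -0.189 to 0.102 over the 30 pairs with different numbers, 13 of them positive. Of 30 samples, 18 correlated best with their own number, among them all 6 of EGFP(R96W), which is a hint from the data. The labels name nothing that the numbers share and not every pair passed 0.1, so the samples are treated as sharing only a number. A replicate block raised the genes called with Arg-tRNA_Gln(CUG) from 123 to 196 and with Arg-tRNA_His(GUG) from 560 to 1068. It changed no call of a member against its reporter; for HSF4 with Arg-tRNA_Trp(CCA) it gave -0.40 (edgeR adjusted p = 0.0248). HSF4, at 37 to 465 counts per library, is the member limited most by depth. The exact permutation test of a within-library ratio cannot pass 0.05 with 3 against 3.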
